A study of Mus musculus with 12 samples.

Results

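Gfap, Vim, Nes and Synm, the genes of 4 intermediate filament proteins of astrocytes, were followed through a mouse model of demyelination. They were chosen by symbol from the 19505 named genes of an expression array, on which each was measured by 1 transcript cluster (a set of probes read out as 1 value), so that no choice between clusters was needed. The RNA came from brain white matter cells of C57BL/6 mice that were released with papain, treated with a block of Fc receptors, and collected on magnetic beads against GLAST, a glutamate transporter of the astrocyte surface encoded by Slc1a3. Cuprizone, a copper chelator that kills oligodendrocytes, was given at 0.2% by weight in powdered food to mice that were 8 to 12 weeks old when feeding began. The 4 groups of 3 arrays were wild-type mice without cuprizone (0 weeks), wild-type mice after 3 weeks, wild-type mice after 12 weeks, and mice deficient in GnT-IX, a glycosyltransferase encoded by Mgat5b, after 12 weeks. No deficient group at 0 or 3 weeks was analysed here, so the effect of genotype can be read only in fed mice. Age advanced with the weeks of feeding, and age and feeding cannot be told apart. The submitters call the replicates independent. How many animals went into an array, which of 2 RNA kits each sample had, and how the deficient line was made are not given in the sources used here.

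Intermediate filaments give astrocytes their mechanical strength. GFAP, the filament protein by which astrocytes are usually recognised, and vimentin can each form filaments on their own, whereas nestin, best known from neural progenitors, and synemin, which ties filaments to other structures, need such a partner. A rise of Gfap is the classic sign of a reactive astrocyte, and vimentin, nestin and synemin have all been described in reactive astrocytes too. Vimentin is also abundant in microglia, endothelial cells and fibroblasts. Transcription of Gfap is driven in part by STAT3, a factor activated by cytokines of the LIF and CNTF family, and by members of the AP-1 and NF1 families.

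The proximal promoters are shown because the 4 genes split in how their signals responded, described further on. Each sequence runs 5′ to 3′ on the gene's own strand from 250 bases before to 50 bases after the annotated start, taken from RefSeq on GRCm38.p6. They lie at chr11:102897151-102897450 on the minus strand for Gfap, chr2:13574061-13574360 on the plus strand for Vim, chr3:87970843-87971142 on the plus strand for Nes, and chr7:67759693-67759992 on the minus strand for Synm. Capitals mark matches to 6 short motifs searched on both strands: TTCNNNGAA for STAT factors, TGANTCA for AP-1, TTGGC for NF1, GGGCGG for Sp1, TATAAA for the TATA box and CCAAT for the CCAAT box.
Gfap: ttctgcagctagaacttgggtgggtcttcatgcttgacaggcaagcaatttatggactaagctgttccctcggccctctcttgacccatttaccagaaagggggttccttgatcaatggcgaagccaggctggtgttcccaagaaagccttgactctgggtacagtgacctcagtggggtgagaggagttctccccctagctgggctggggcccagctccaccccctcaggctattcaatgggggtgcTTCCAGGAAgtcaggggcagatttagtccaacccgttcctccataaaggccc
Vim: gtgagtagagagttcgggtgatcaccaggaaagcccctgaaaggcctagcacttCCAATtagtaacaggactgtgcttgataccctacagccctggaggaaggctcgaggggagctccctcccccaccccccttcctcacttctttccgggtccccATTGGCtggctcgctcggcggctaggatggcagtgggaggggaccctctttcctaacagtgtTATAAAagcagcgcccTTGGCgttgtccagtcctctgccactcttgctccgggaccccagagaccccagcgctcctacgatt
Nes: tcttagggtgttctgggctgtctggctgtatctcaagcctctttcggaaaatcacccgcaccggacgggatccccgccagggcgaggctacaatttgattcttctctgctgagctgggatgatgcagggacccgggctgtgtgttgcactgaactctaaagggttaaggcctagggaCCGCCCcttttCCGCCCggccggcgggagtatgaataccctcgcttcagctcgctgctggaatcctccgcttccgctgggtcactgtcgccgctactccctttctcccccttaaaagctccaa
Synm: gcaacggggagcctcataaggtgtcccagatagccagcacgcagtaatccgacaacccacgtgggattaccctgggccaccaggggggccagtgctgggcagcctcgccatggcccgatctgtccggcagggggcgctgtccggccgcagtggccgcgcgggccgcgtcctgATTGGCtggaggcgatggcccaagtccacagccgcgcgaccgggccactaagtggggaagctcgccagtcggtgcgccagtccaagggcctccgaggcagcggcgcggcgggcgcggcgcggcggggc
The Gfap window held 1 match, to the STAT motif, which began 2 bases before the start and stood in 8.30% of the 32851 mouse promoter windows of the same length. The Vim window had a TATA box 32 bases before the start, a motif found in 13.6% of windows, and was the only one of the 4 with it. It also held TTGGC at 93 and 16 bases and CCAAT at 196 and, on the reverse strand, 94 bases before the start. These motifs occurred in 46.7% and 37.4% of windows. In the Nes window, GGGCGG on the reverse strand, present in 35.7% of windows, began 73 and 62 bases before the start. In Synm, TTGGC at 77 bases overlapped CCAAT on the reverse strand at 78 bases, as the pair at 93 and 94 bases did in Vim. TGANTCA, in 7.81% of windows, was in none of the 4. GC content was 55.7% for Gfap, 59.3% for Vim, 58.7% for Nes and 72.7% for Synm, where the median window had 52.7%. A match is a stretch of letters, and binding was not measured.

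All values are log2 signals after robust multi-array averaging (RMA), on a scale where 1 unit is a doubling and array medians were 5.38 to 5.45. Mgat5b, the targeted gene, stood at 3.70, 4.19 and 4.06 in the deficient arrays and at 5.57 to 5.96 in the wild-type 12-week arrays. It fell by 1.82 (SE 0.21, limma adjusted p = 0.00159), as the labels imply. The mean over 16 measured markers of resting astrocytes, Slc1a3 among them, was 9.88 to 10.15 at 0 weeks and 8.93 to 9.62 in the 9 cuprizone arrays. Of those 16 genes, 10 were lower in the 3 cuprizone groups averaged against 0 weeks (limma adjusted p under 0.05), with a median of -0.78. In that comparison 5.47% of all genes differed and 3.28% were higher, and the counts of other markers in this paragraph come from it. Other cell types were present as well. Oligodendrocyte markers averaged 9.67 to 10.04 at 0 weeks, far above the array median, and 8.84 to 10.16 after cuprizone. The 14 microglial markers averaged 5.39 ± 0.30 (SD, n = 3) at 0 weeks, 7.51 ± 1.23 at 3 weeks, 8.40 ± 0.58 at 12 weeks and 7.82 ± 0.54 in the deficient group, and 12 of them rose. Endothelial markers averaged 5.63 to 5.84 at 0 weeks and 5.58 to 7.16 later, and 3 of 10 rose. A bulk array cannot tell more cells of a type from more RNA per cell, and this holds for each result here.

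Gfap rose in the cuprizone groups, by close to 4-fold at 3 weeks. Without cuprizone its signal was 6.55, 6.21 and 5.90. After 3 weeks it was 7.93, 8.92 and 7.71, and after 12 weeks 8.17, 8.31 and 9.02. In the deficient mice at 12 weeks it was 8.04, 6.86 and 9.26. Each of the 9 cuprizone arrays therefore lay above the highest array at 0 weeks, although the second deficient array cleared it by little. Such a separation was seen, upward, in 3.32% of all genes. Group means were 6.22 ± 0.33 (SD, n = 3) at 0 weeks, 8.19 ± 0.64 at 3 weeks, 8.50 ± 0.46 at 12 weeks and 8.05 ± 1.20 in the deficient group.

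At 3 weeks the rise of Gfap was 1.97 (SE 0.46, 95% interval 0.99 to 2.94), or 3.91-fold, with an adjusted p of 0.0305 from limma, a linear model with a spread shared across genes. At that threshold of 0.05, 3.24% of all genes differed in the comparison, and 1.61% were higher. At 12 weeks the rise was 2.28 (SE 0.46, interval 1.30 to 3.26), or 4.86-fold, with an adjusted p of 0.0172, where 2.64% of genes differed and 2.11% were higher. For the 3 cuprizone groups averaged against 0 weeks it was 2.03 (SE 0.37, interval 1.23 to 2.82), or 4.07-fold, with an adjusted p of 0.00655. In that comparison 5.47% of all genes differed and 3.28% of all genes were higher, and Gfap took place 60 by size of the rise and place 205 by p-value. The comparisons share the 0-week arrays and are not separate evidence. Between 3 and 12 weeks Gfap differed by 0.31 (interval -0.66 to 1.29, limma adjusted p = 0.853), in a comparison where 0.0820% of genes differed.

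The averaged rise of Gfap stayed past the threshold when any 1 of the 12 arrays was left out. The rise at 3 weeks missed it once any single 0-week array was removed, or 3-week replicate 1 or 2 (adjusted p 0.0638 to 0.0986), and the rise at 12 weeks missed it without 0-week replicate 2 or 3 or 12-week replicate 2 or 3 (adjusted p 0.0516 to 0.0717). With a covariate for the mean of the microglial markers, the averaged rise of Gfap was 2.58 with an SE of 0.76 and an adjusted p of 0.689, in a limma fit where 0 genes passed and 1074 had an unadjusted p under 0.05. With a variance trend and robust fitting the adjusted p was 0.0768 at 3 weeks and 0.0515 at 12 weeks. With the endothelial mean as a covariate the rise at 12 weeks was 3.30 (SE 0.64, adjusted p = 0.103), where 1 gene passed. With the oligodendrocyte mean it was 1.87 (SE 0.62, adjusted p = 0.262), where 8 genes passed.

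**Figure D1:**
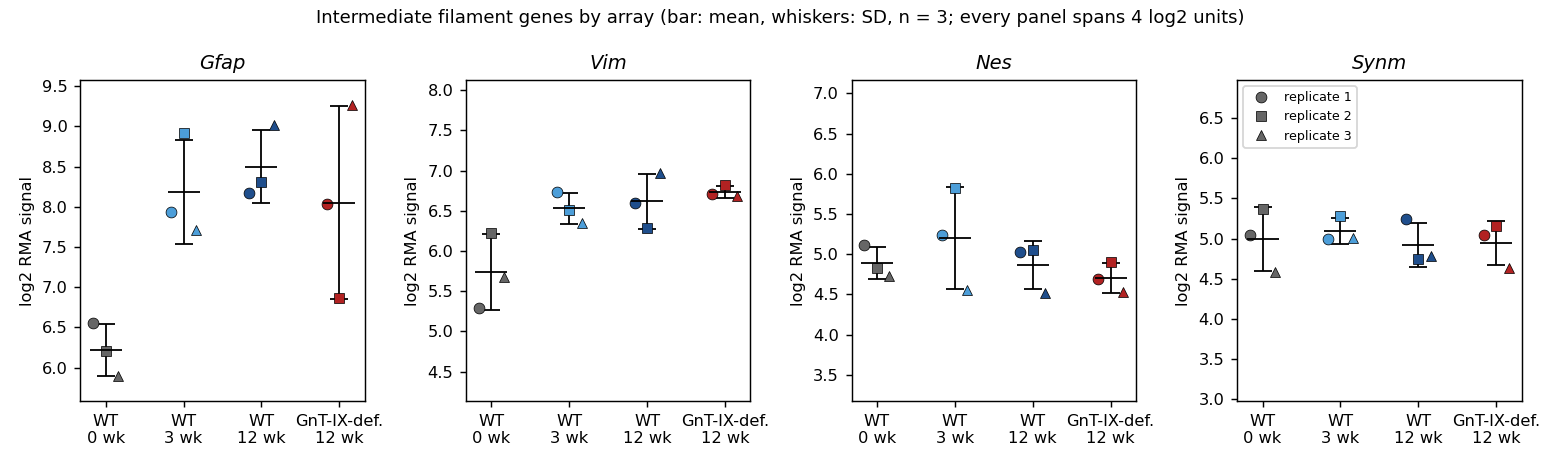
Log2 RMA signal of Gfap, Vim, Nes and Synm (vertical axis, each panel spanning 4 log2 units) in the 12 arrays by group, with symbols for replicate numbers, bars for means and whiskers for the SD (n = 3). All 9 cuprizone arrays lie above the 0-week arrays for Gfap, the lowest at 6.86 against 6.55, and for Vim, the lowest at 6.29 against 6.23, while the groups overlap for Nes and Synm. Of all genes, 3.32% were separated upward in this way.

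Vim, the gene of vimentin, moved in the same direction with a smaller change. It read 5.29, 6.23 and 5.68 at 0 weeks, 6.73, 6.51 and 6.35 at 3 weeks, and 6.60, 6.29 and 6.97 at 12 weeks. The deficient arrays read 6.71, 6.82 and 6.68. No cuprizone array fell to the level of the 0-week arrays, as in 3.32% of all genes, but the gap was narrow, from 6.23 to 6.29. The means were 5.73 ± 0.47 (SD, n = 3), 6.53 ± 0.19, 6.62 ± 0.34 and 6.74 ± 0.074.

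Averaged over the 3 cuprizone groups, Vim rose by 0.90 (SE 0.19, interval 0.50 to 1.29), or 1.86-fold, with a limma adjusted p of 0.0125. Taken alone, the wild-type groups missed the threshold: the difference was 0.80 (interval 0.31 to 1.29, adjusted p = 0.077) at 3 weeks and 0.89 (interval 0.40 to 1.38, adjusted p = 0.0536) at 12 weeks. Between 12 and 3 weeks Vim differed by 0.09 (interval -0.40 to 0.58, adjusted p = 0.925). The deficient arrays against 0 weeks, a comparison that mixes genotype with feeding, gave 1.00 (interval 0.51 to 1.49, adjusted p = 0.0272) for Vim and 1.83 (interval 0.86 to 2.81, adjusted p = 0.039) for Gfap, where 4.11% of genes differed. The call of Gfap there was lost without any single 0-week array or deficient replicate 1 or 3, and that of Vim without 0-week replicate 1 or 3 or deficient replicate 2 or 3.

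The averaged call of Vim was lost without 0-week replicate 1, its lowest array, where the difference was 0.67 with a limma adjusted p of 0.12. Without 0-week replicate 2 the differences at 3 and 12 weeks passed, at 1.04 (adjusted p = 0.0375) and 1.14 (adjusted p = 0.0405). Across the 12 arrays Vim followed the marker means of microglia (r = 0.71) and endothelial cells (r = 0.64), and within groups it did not (r = -0.022 and 0.066). Gfap had r = 0.66 and 0.41 with the same means, and r = -0.22 and -0.51 within groups. Among all marker lists, Gfap was closest to the mean of 9 neural stem markers (r = 0.76, and 0.92 within groups). Its lowest r within groups was -0.60, with choroid plexus markers. These are descriptions, since the arrays share the feeding. With the microglial and endothelial means as covariates the averaged rise of Vim was 0.92 (SE 0.39, adjusted p = 0.903) and 0.85 (SE 0.30, adjusted p = 0.254). The part of other cell types in the signal of Vim was not tested further.

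Nes and Synm did not pass the test in any comparison. Nes, encoding nestin, was 5.12, 4.83 and 4.73 at 0 weeks, 5.24, 5.82 and 4.55 at 3 weeks, 5.03, 5.05 and 4.52 at 12 weeks, and 4.69, 4.90 and 4.53 in the deficient group. Replicate 2 at 3 weeks, at 5.82, was its highest array, and only 2 of the 9 cuprizone arrays exceeded the highest 0-week array. Its means were 4.89 ± 0.20 (SD, n = 3), 5.20 ± 0.64, 4.87 ± 0.30 and 4.71 ± 0.19. The averaged cuprizone difference of Nes was 0.032 (interval -0.43 to 0.49, limma adjusted p = 0.958). At 3 weeks it was 0.31 (interval -0.25 to 0.87) and at 12 weeks -0.027 (interval -0.59 to 0.53), with adjusted p-values of 0.632 and 0.979.

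Synm, encoding synemin, was 5.04, 5.37 and 4.58 at 0 weeks, 5.0, 5.28 and 5.01 at 3 weeks, 5.24, 4.74 and 4.78 at 12 weeks, and 5.05, 5.15 and 4.63 in the deficient group. None of the 9 cuprizone arrays exceeded the highest 0-week array, and all groups overlapped. Its means were 5.0 ± 0.40 (SD, n = 3), 5.10 ± 0.16, 4.92 ± 0.28 and 4.94 ± 0.28. The averaged difference of Synm was -0.01 (interval -0.39 to 0.37, limma adjusted p = 0.986), with 0.10 (interval -0.37 to 0.57) at 3 weeks and -0.077 (interval -0.55 to 0.39) at 12 weeks. A rise of the size seen for Gfap lies outside the averaged intervals of both Nes and Synm. Both were dim, however: across the groups Nes stood at percentile 36.5 to 44.9 of all genes and Synm at 40.0 to 43.1. No detection call was used, so the intervals hold for the measured signal and cannot show that either transcript was detected. When arrays were scaled to the resting astrocyte markers, which moved the median of all genes by 0.72, the averaged differences were 0.75 for Nes and 0.71 for Synm (adjusted p = 0.0113 and 0.00918), beside 2.75 for Gfap and 1.62 for Vim.

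Ordered by mean, Gfap was highest in the wild-type 12-week group, then the 3-week, deficient and 0-week groups, and only the last pair of neighbours did not overlap. For Vim the order was deficient, 12-week, 3-week and 0-week, and again only the last pair did not overlap. Nes and Synm had their highest mean at 3 weeks, and all of their neighbouring groups overlapped.

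**Figure D2:**
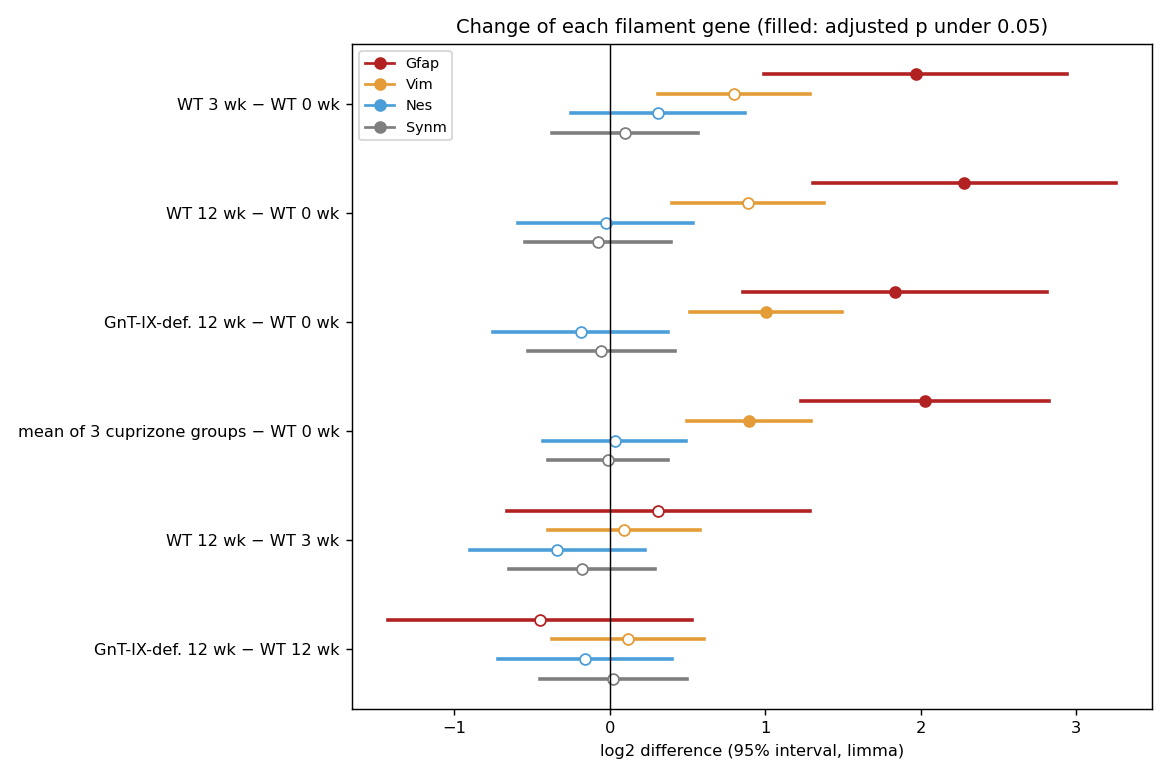
Log2 difference (horizontal axis) of Gfap, Vim, Nes and Synm in 6 comparisons between groups, with 95% intervals from limma and filled points where the adjusted p was under 0.05. Gfap lies to the right of 0 in each comparison with the 0-week group, at 1.97, 2.28, 1.83 and 2.03. Vim lies between 0.80 and 1.00 there, and the intervals of Nes and Synm include 0 throughout.

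Whether the changes were unequal was tested on the difference between genes within each array, over 9 cuprizone and 3 untreated arrays, with exact two-sided permutation tests of 3 differences. Gfap minus Nes was 1.17 to 1.43 at 0 weeks and 1.96 to 4.73 after cuprizone, a gain of 1.99 (SE 0.29, exact p = 0.00909, adjusted 0.0136). Gfap minus Synm was 0.84 to 1.51 at 0 weeks and 1.71 to 4.63 after cuprizone, a gain of 2.04 (SE 0.35, exact p = 0.00909, adjusted 0.0136). That p is the smallest the 220 splits can give. Neither pair of ranges overlapped, so the change in measured signal was larger for Gfap than for the dim Nes and Synm. Gfap minus Vim gained 1.13 (SE 0.47, exact p = 0.0727, adjusted 0.0727), and its ranges overlapped, from -0.02 to 1.26 at 0 weeks and from 0.04 to 2.58 after cuprizone. The lowest of these cuprizone values was the second deficient array. Without it the gain over Vim was 1.33 (exact p = 0.0242), and in wild-type arrays alone 1.28 (exact p = 0.0476). Without 0-week replicate 2 it was 0.88 (exact p = 0.255), and over all 12 arrays left out in turn the exact p ran from 0.0242 to 0.255, so a larger change of Gfap than of Vim was not established.

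At 12 weeks none of Gfap, Vim, Nes and Synm passed the limma test between deficient and wild-type mice. Gfap was -0.45 (interval -1.42 to 0.53, limma adjusted p = 0.86), Vim 0.12 (interval -0.37 to 0.61, adjusted p = 0.939), Nes -0.16 (interval -0.72 to 0.40, adjusted p = 0.922) and Synm 0.023 (interval -0.45 to 0.49, adjusted p = 0.988). In this comparison 0.0256% of all genes differed. The deficient arrays of Gfap ran from 6.86 to 9.26, and their SD of 1.20 was at percentile 99.8 of all genes' SDs in that group. Without the second deficient array the Gfap difference was 0.15, of the opposite sign. The deficient arrays also carried unequal signal of cells that line the ventricles. Choroid plexus markers averaged 8.13, 7.12 and 5.49 in replicates 1 to 3, against 4.38 to 5.92 in the wild-type arrays, and ependymal markers 6.19, 7.21 and 6.81. Resting astrocyte markers averaged 9.61, 8.93 and 9.12 in the same arrays. With the choroid plexus mean as a covariate the Gfap difference was 0.60 (adjusted p = 0.942), and the part of these cells in the spread of Gfap was not tested further.

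The gene whose pattern was most like that of Gfap was Serpina3n, a secreted protease inhibitor known as a marker of reactive astrocytes. Likeness was Pearson's r over the 12 arrays among 6512 genes above the lower quartile of signal with an SD of at least 0.3, and it carries no p because the arrays share their treatment. Serpina3n had r = 0.951 with Gfap, and 0.984 after group means were removed. It read 6.39, 6.12 and 5.81 at 0 weeks, 8.92, 9.47 and 8.78 at 3 weeks, and 8.60, 8.86 and 9.11 at 12 weeks. In the deficient arrays it was 8.29, 7.30 and 9.17, the same order of arrays as Gfap. Its averaged rise was 2.62 (SE 0.28, limma adjusted p = 0.000291), and no single array removed that call. With the microglial mean as a covariate it was 2.94 (SE 0.58, adjusted p = 0.346), in the fit where 0 genes passed. The next 4 were Tgm1, a transglutaminase (r = 0.885), Suv39h2, a histone methyltransferase (r = 0.880), Arl14ep (r = 0.879) and C4a, a complement gene (r = 0.869). C4a has a near-identical copy in C4b, so its signal may hold both.

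**Figure D3:**
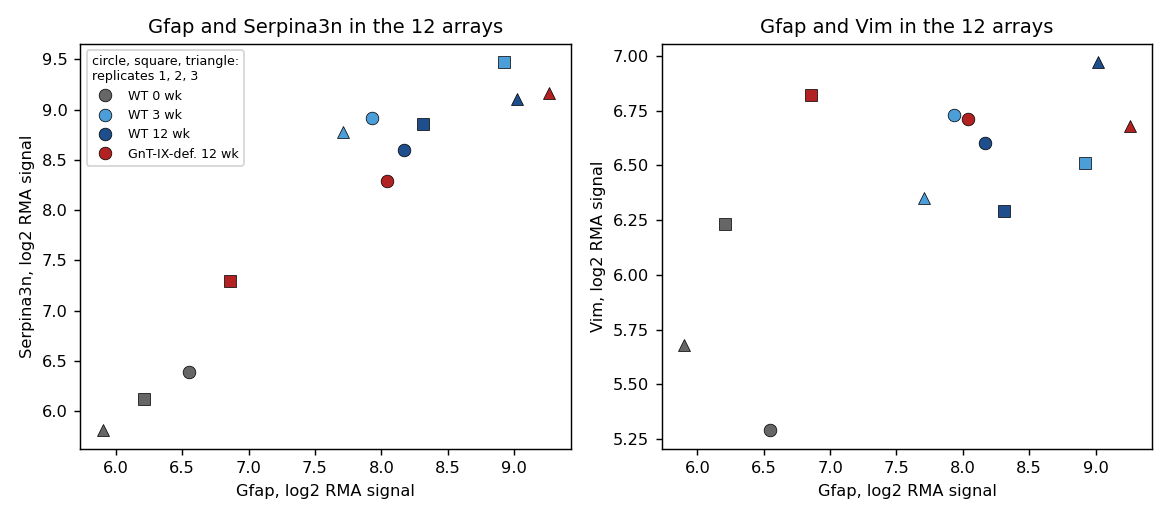
Log2 RMA signal of Gfap (horizontal axes) against Serpina3n (left) and Vim (right) in the 12 arrays, coloured by group, with symbols for replicate numbers. Serpina3n follows Gfap closely (r = 0.951), down to the second deficient array at 6.86 and 7.30, whereas Vim does so less closely (r = 0.66).

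Vim and Gfap correlated at r = 0.66 over the 12 arrays and at r = -0.017 once group means were removed. The genes most like Vim were Nap1l1, a histone chaperone (r = 0.882), the ribosomal protein genes Rpl27 (r = 0.873) and Rpl31 (r = 0.855), Nupr1, a stress-induced chromatin protein (r = 0.873), and Lgals1, encoding a galactose-binding lectin (r = 0.851). Once group means were removed, their r with Vim fell to between 0.32 (Rpl31) and 0.58 (Nap1l1). Nupr1 rose by 1.84 (SE 0.18, limma adjusted p = 0.000225) and Lgals1 by 1.61 (SE 0.24, adjusted p = 0.00225) in the averaged comparison, and no single array removed either call. Both calls were lost with the microglial mean as a covariate, where 0 genes passed. Lgals1 also lost its call with the endothelial mean. Nes was most like Amigo3 (r = 0.903), Tbx6 (r = 0.888), the transcription factor gene Klf4 (r = 0.883), Gdpd3 (r = 0.882) and Tmem262 (r = 0.881). Synm was most like Ttc21a (r = 0.889), the transcription factor gene Klf13 (r = 0.839), Vps9d1 (r = 0.835), Fcsk, a fucose kinase gene (r = 0.832), and Dnaaf3, a gene of axonemal dynein assembly (r = 0.826). None of these 10 passed the averaged test. Nes and Synm correlated with each other at r = 0.49 and with Gfap at r = 0.076 and -0.16.

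Around these genes, 6 lists of 97 genes covered other filaments and the proteins that link, modify, fold and regulate them, and 83 of the 97 were measured. In the averaged comparison 6 rose and 5 fell, 13.3% of the 83 against 5.47% of all genes. Their median difference was -0.04, and the median of all genes was -0.011. At 3 weeks 3 rose and 4 fell, or 8.43% against 3.24%, and at 12 weeks 4 rose, or 4.82% against 2.64%. Between 12 and 3 weeks and between genotypes none passed the limma test, and 11 of 83 had an unadjusted p under 0.05 in each.

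Of 17 other filament and lamin genes, 1 rose and 1 fell in the averaged comparison, with a median of 0.13. Ina, the neuronal filament alpha-internexin, rose by 0.73 (SE 0.19, limma adjusted p = 0.0398), from 5.90, 5.19 and 5.76 at 0 weeks to 6.25, 6.79 and 6.85 at 3 weeks. At 12 weeks it was 5.79, 6.16 and 5.90 in wild-type and 6.04, 6.75 and 6.60 in deficient mice, so the wild-type 12-week arrays overlapped the 0-week arrays. The 9 measured neuronal markers had a median of 0.45 at 3 weeks, where 2 rose, against 1.61% of all genes. On average their median was 0.46 and 0 passed the limma test. The part of neuronal signal in Ina was not tested. Krt14, a keratin, fell by 0.53 (adjusted p = 0.0471). Lmna, encoding the nuclear lamins A and C, rose at 3 weeks by 0.73 (adjusted p = 0.0279) and differed by 0.14 (adjusted p = 0.778) at 12 weeks.

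Among 10 linker genes, with a median of -0.22, 1 passed: Vcl, encoding the adhesion protein vinculin, fell by 0.77 (limma adjusted p = 0.0199), and was 7.72, 7.82 and 7.44 at 0 weeks and 6.75, 6.75 and 6.44 at 3 weeks. At 12 weeks Vcl was 7.48, 6.97 and 7.48 in wild-type mice, overlapping the 0-week arrays, a difference of -0.35 (adjusted p = 0.499), and 7.16, 6.39 and 6.58 in deficient mice. Among 11 enzymes that phosphorylate, cleave or citrullinate filaments, Capn2, the calpain protease subunit, fell by 0.91 (adjusted p = 0.016), and Cdk1, the mitotic kinase that phosphorylates vimentin, rose by 1.07 (adjusted p = 0.0349). Aurkb, another mitotic kinase of filaments, rose by 0.93 (adjusted p = 0.0358) at 12 weeks. With arrays scaled to the resting astrocyte markers, the averaged difference was -0.050 for Vcl (adjusted p = 0.817) and -0.19 for Capn2 (adjusted p = 0.394). Of 9 chaperones 1 passed: Hspb1, a small heat shock protein that binds filaments, was 5.94 to 6.40 at 0 weeks and 6.17 to 7.82 after cuprizone, a rise of 0.96 (adjusted p = 0.019).

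In the cytokine path to STAT3, 1 of 16 genes rose and 1 fell, with a median of -0.089. Cntfr, the receptor of ciliary neurotrophic factor on astrocytes, was 11.27, 10.74 and 10.75 at 0 weeks and 9.59 to 10.65 in the cuprizone arrays. It fell by 0.84 (SE 0.18, limma adjusted p = 0.0119) on average, and by 0.98 (adjusted p = 0.0223) at 3 weeks, while the difference at 12 weeks was -0.55 (adjusted p = 0.227). With arrays scaled to the resting astrocyte markers, Cntfr was -0.12 both on average (adjusted p = 0.586) and at 3 weeks (adjusted p = 0.657). Il6ra, a chain of the IL6 receptor that microglia also express, rose by 1.32 (SE 0.29, adjusted p = 0.0148), and its difference was -0.33 once the microglial mean entered the model. Stat3 itself was 8.53, 8.36 and 8.07 at 0 weeks, 8.79, 9.17 and 8.59 at 3 weeks, 8.68, 8.69 and 8.70 at 12 weeks, and 8.26, 8.32 and 8.59 in deficient mice. Its averaged difference was 0.32 (adjusted p = 0.25) and it passed no comparison. RNA levels do not report phosphorylation, by which STAT3 is activated.

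Among 20 regulators that act at Gfap or in the astrocyte lineage, most of them transcription factors, 2 rose and 1 fell, with a median of -0.18. Junb, an AP-1 subunit, was 6.49, 6.10 and 6.86 at 0 weeks, 8.45, 8.24 and 7.90 at 3 weeks, 8.70, 9.44 and 8.45 at 12 weeks, and 8.01, 9.06 and 8.30 in deficient mice. No cuprizone array of Junb overlapped the 0-week arrays, an upward separation seen in 3.32% of all genes. Its rise was 1.71 (limma adjusted p = 0.00592) at 3 weeks, 2.38 (adjusted p = 0.00115) at 12 weeks and 2.02 (SE 0.24, adjusted p = 0.000524) on average. Fos, another AP-1 subunit, rose by 0.92 (adjusted p = 0.0286) on average, from 5.72 to 5.86 at 0 weeks to 6.15 to 7.41 in the cuprizone arrays. With the microglial mean as a covariate, Junb was 0.85 (adjusted p = 0.671) at 3 weeks and 1.16 (adjusted p = 0.999) at 12 weeks. Its averaged call was lost there (adjusted p = 0.888), in a fit where 0 genes passed. Fos lost its averaged call with the microglial, endothelial or oligodendrocyte mean. The part of other cell types in both signals was not tested. Sox9, a factor that marks astrocytes, fell by 0.64 (adjusted p = 0.0383), and Pax6 fell by 0.83 (adjusted p = 0.0366) at 3 weeks. Of the 11 genes called on average, Junb kept its call when any single array was left out. The other 10 lost theirs without 0-week replicate 1, and all of these but Cntfr did so without 0-week replicate 2. Ina, Krt14, Hspb1, Sox9 and Fos also did without 0-week replicate 3, and Ina, Krt14, Cdk1, Sox9 and Fos without 1 or more cuprizone arrays. Of the calls at a single time, Lmna at 3 weeks and Aurkb at 12 weeks were lost without any 1 of the 6 arrays compared. Pax6 lost its call without any of those arrays but 3-week replicate 2, and Cntfr at 3 weeks without replicate 1 or 2 at 0 weeks or replicate 1 or 3 at 3 weeks.

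**Figure D4:**
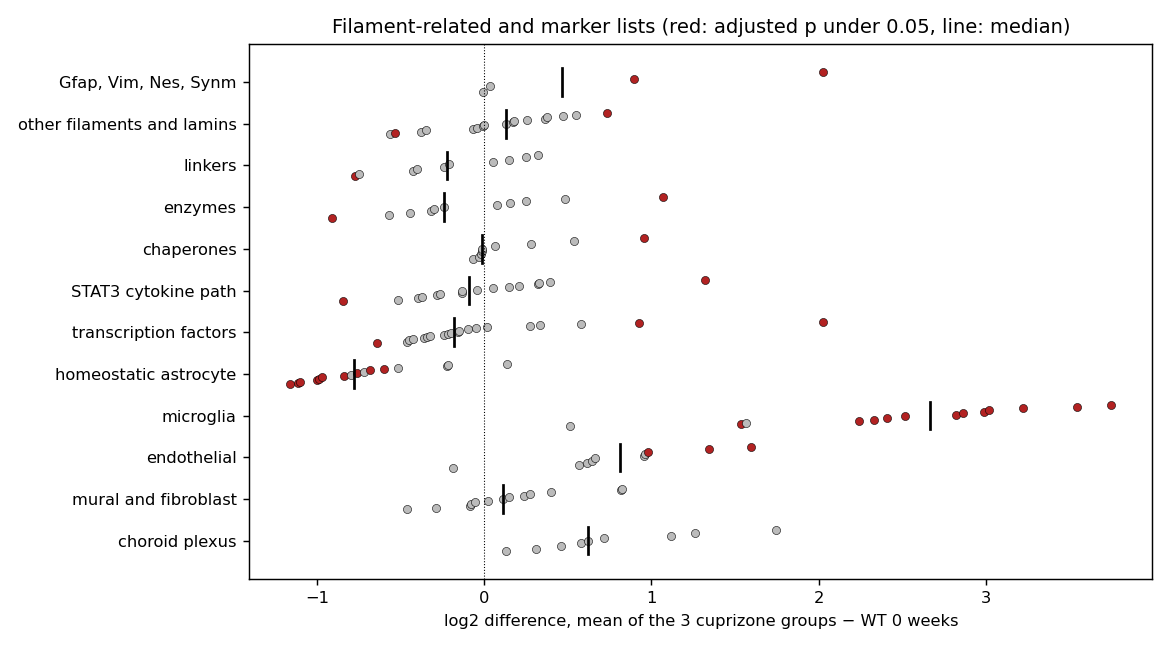
Averaged log2 difference of the 3 cuprizone groups from 0 weeks (horizontal axis) for the genes of each list, 1 point per gene, red where the limma adjusted p was under 0.05, with a line at the list median. Gfap at 2.03 and Junb at 2.02 lie farthest to the right among the filament lists, and microglial markers lie to the right with a median of 2.67, resting astrocyte markers to the left with -0.78. The row of transcription factors also holds other regulators.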

How the data were processed

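RNA of 12 samples was hybridised to Affymetrix arrays, 3 per group. The deposited values are log2 signals per transcript cluster that the authors obtained with RMA in Affymetrix Expression Console 1.4, per the submitters' processing notes. The values are normalized together, and no probe-level signal or detection call was used here. Of 22206 clusters, 19572 carry 1 gene symbol in the platform annotation, and these made 19505 genes after the brightest of several clusters was kept. For the annotation's genome build, the sources used here give none.

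Groups were compared in limma 3.58.1 (R 4.3.3) with 1 mean per group over all 12 arrays, 8 residual degrees of freedom, a threshold of 0.05 and p-values adjusted by Benjamini-Hochberg across all 19505 genes. Unequal change was tested by exact permutation. Simulated arrays had independent noise around 1 mean per gene, with 100 genes changed by 1 log2 unit and 100 by 2. There the averaged comparison recovered 87% of changes of 1 log2 unit among 19505 genes, the 3-week comparison 58% and the 12-week comparison 61%. Such arrays lack the shared shifts of cell markers seen here, so these shares do not give the power of the real comparisons. Exact permutation used scipy 1.17.1, and figures matplotlib 3.10.9.

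The genes and lists were chosen with earlier results of these data known. Named were Gfap, Vim, Nes and Synm, the 5 genes most like each, up to 4 listed genes per list and comparison past the threshold with the smallest p first, and Slc1a3, Mgat5b and Stat3. Slc1a3 fell by 1.16 on average (adjusted p = 0.0075). Alternatives changed the normalization, the filter on dim genes, the variance model, the arrays used and covariates. Array number limits the precision, and levels were compared only within a gene.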

Additional observations from a re-analysis of the deposited data

How the results depend on the processing

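Over 24 alternatives the averaged rise of Gfap kept its direction in each and its call in 23, and Vim kept its direction in each and its call in 20. With the microglial covariate the averaged difference was 2.58 for Gfap, 0.92 for Vim, -0.35 for Nes and 0.20 for Synm, and the others were 2.43 (Gfap) and -0.014 (Nes) at 3 weeks, 2.94 (Gfap) and 0.17 (Synm) at 12 weeks, -0.025 (Synm) between genotypes, and 2.36 (Gfap), 1.03 (Vim) and 0.15 (Synm) for the deficient group against 0 weeks. The endothelial covariate gave 3.30 (Gfap) and 0.36 (Nes) at 12 weeks, 0.85 (Vim) on average, and 2.80 (Gfap), 0.95 (Vim) and 0.18 (Nes) for the deficient group against 0 weeks. The oligodendrocyte covariate gave 1.87 (Gfap) and 0.073 (Synm) at 12 weeks, -0.074 (Gfap) from 3 to 12 weeks, -0.019 (Synm) between genotypes, 0.88 (Vim), -0.065 (Nes) and 0.079 (Synm) on average, and 1.54 (Gfap), 0.99 (Vim) and 0.054 (Synm) for the deficient group against 0 weeks. The choroid plexus covariate gave 0.60 (Gfap) and -0.25 (Synm) between genotypes and 0.99 (Vim) for the deficient group against 0 weeks. Each value named here lost a call or changed sign, and the cause was not tested. Alternatives for the deficient group against 0 weeks and for genes other than these 4 were chosen after seeing the data.

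Scaling to the resting astrocyte markers raised the median of all genes by 0.86 at 3 weeks, 0.53 at 12 weeks, 0.25 between genotypes and 0.72 on average, and lowered it by 0.33 from 3 to 12 weeks (a shift of -0.33). On that scale Vim was 1.66, Nes 1.17 and Synm 0.96 at 3 weeks, past the threshold. Vim was 1.41, Nes 0.50 and Synm 0.45 at 12 weeks, Gfap -0.019 and Vim -0.24 from 3 to 12 weeks, and Nes 0.087 between genotypes. On average Nes was 0.75 and Synm 0.71, and for the deficient group against 0 weeks they were 0.59 and 0.72, close to the shift itself. Pax6 at 3 weeks was 0.027 on that scale, and Krt14 and Sox9 on average 0.19 and 0.078. With the microglial covariate Il6ra was -0.16 at 12 weeks and -0.33 on average, and Cdk1 -0.11. Nes on average was -0.0091 after repeated quantile normalization and -0.01 after median centring. Without the dimmest 30% of genes Vim at 12 weeks passed, at 0.89. Trend and robust variance left Gfap at 1.97, 2.28 and 1.83 at 3 weeks, 12 weeks and in the deficient group, no longer past the threshold (adjusted p 0.0768, 0.0515 and 0.0772). Gfap minus Vim passed in wild-type arrays alone, at 1.28.

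Of all genes, the averaged comparison called 1067, and 0 with the microglial covariate (1074 at an unadjusted p under 0.05 in limma), 105 with the endothelial, 611 with the oligodendrocyte, 1827 with array weights and 15539 on the astrocyte scale. At 3 weeks 632 became 3, 402 with the endothelial covariate and 15516. At 12 weeks 514 became 0 (863 unadjusted), 1, 8, 919 and 2474. From 3 to 12 weeks 16 became 0 with the microglial, endothelial and oligodendrocyte covariates (1895, 1326 and 1006 unadjusted), 112 on the astrocyte scale, 33 with array weights, 30 with trend and robust variance, and 9 without dim genes or with only the arrays compared. Between genotypes 5 became 41 on the astrocyte scale, 8 with the endothelial and 1 with the choroid plexus covariate. For the deficient group against 0 weeks 801 became 3, 10, 368, 75 and 12650 with the 4 covariates and the astrocyte scale. Calls were split 640 higher and 427 lower on average, 315 and 317 at 3 weeks, 412 and 102 at 12 weeks and 470 and 331 for the deficient group against 0 weeks. Median centring made these 539 and 550, 252 and 362, 336 and 141, and 393 and 403, and the astrocyte scale 15514 and 25, 15479 and 37, 2470 and 4, and 12626 and 24. From 3 to 12 weeks 5 and 11 became 3 and 11 after median centring or quantile normalization and 1 and 111 on the astrocyte scale, and between genotypes 4 and 1 became 40 and 1 there. Quantile normalization made the averaged split 598 and 462 and that at 3 weeks 258 and 330.

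Leaving out 1 array gave, at 3 weeks, Gfap 1.60 to 2.21, Vim 0.57 to 1.04, Nes 0.0017 to 0.64, Synm -0.11 to 0.29 and 192 to 643 genes. At 12 weeks it gave Gfap 2.02 to 2.44, Vim 0.67 to 1.14, Nes -0.12 to 0.15, Synm -0.28 to 0.11 and 77 to 504 genes. From 3 to 12 weeks it gave Gfap 0.053 to 0.68, Vim -0.085 to 0.26, Nes -0.66 to -0.028, Synm -0.34 to -0.085 and 0 to 146 genes, with 1751 at an unadjusted p under 0.05 in limma where it was 0. Between genotypes it gave Gfap -1.05 to 0.15, Vim -0.048 to 0.29, Nes -0.33 to -0.068, Synm -0.08 to 0.18 and 3 to 49 genes. On average it gave Gfap 1.83 to 2.23, Vim 0.67 to 1.14, Nes -0.071 to 0.15, Synm -0.22 to 0.18 and 285 to 1359 genes. For the deficient group against 0 weeks it gave Gfap 1.23 to 2.43, Vim 0.78 to 1.25, Nes -0.28 to -0.073, Synm -0.26 to 0.13 and 98 to 1062 genes. Gfap minus Vim ran from 0.88 to 1.52.

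With the replicate number as a block, the averaged comparison called 1059 genes, with Gfap at an adjusted p of 0.0116 and Vim at 0.0211, and no call of Gfap, Vim, Nes or Synm changed. Deviations of same-numbered arrays correlated at -0.28 to 0.22 (median 0.048), over 0.1 in 6 of 18 pairs. Those of differently numbered arrays correlated at -0.30 to 0.34 (median -0.041), over 0.1 in 8 of 36 pairs. The ranges overlapped, and the numbers were not taken to pair the samples.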
